A study of Mus musculus with 6 samples.

Results

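The BCL2 family genes that decide whether a cell survives or dies by the mitochondrial route were followed in CD4+ CD25+ T cells lacking Keap1. The 10 genes listed were the anti-apoptotic Bcl2, Bcl2l1 and Mcl1, the effectors Bax and Bak1, and the BH3-only genes Bcl2l11, Bid, Bad, Bbc3 and Pmaip1. They were found by matching current and older gene symbols to the array annotation. This gave 9 members among 30024 named genes, each on 1 transcript cluster (the probe set of a gene) that names no other gene, and Bax was not analysed here. All 9 passed the intensity filter used for testing, as 16825 genes did, and lay at or above the median of each of the 6 arrays.

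The 2 groups compared had 3 arrays each, Keap1_KO (replicates B, C and D) and WT (replicates A, D and F). Keap1_KO mice carried floxed Keap1 alleles and Cre under the Vav promoter, and the labels give their genotype as Keap1 -/-. WT mice are given as Keap1 +/+, and whether they carried Cre or floxed alleles is not stated in the labels. All mice were male and C57BL/6 and were untreated, and their age is given both as 10 to 12 months and as 6 to 10 weeks. The cells, which carry the surface markers of regulatory T (Treg) cells, were taken from spleen by magnetic separation. Vav-driven Cre acts in blood-forming cells and not in Treg cells alone, so other blood cells of these mice had the same deletion.

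BCL2 family proteins meet at the outer mitochondrial membrane. BH3-only proteins sense stress or loss of growth factor, anti-apoptotic proteins bind and hold them, and the effectors BAX and BAK permeabilise the membrane once released or activated. Treg cells depend on MCL1 for survival, and BIM, the product of Bcl2l11, limits their number when interleukin-2 is scarce. Keap1 marks the transcription factor NRF2 for degradation, so its loss is known to raise NRF2 activity.

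Promoter windows of the members were searched for 4 short motifs, and 4 windows are shown because they belong to the members with the largest difference in either direction (Bcl2 and Bak1) or hold a match to a motif of NRF2 (Bcl2l1) or FOXO factors (Bcl2l11). Each window runs from 250 bases before to 50 bases after an annotated start, in RefSeq's GRCm38.p6 tables. These gave 14 windows for 8 members and none for Pmaip1. The motifs, searched on both strands, were TGACNNNGC (the core of the antioxidant response element bound by NRF2), TTCNNNGAA (STAT), GTAAACA (FOXO) and GGGCGG (the GC box). Capitals mark the matches, none of which overlapped another motif, and the windows are written 5′ to 3′ on the strand of the gene. They lie at chr1:106714241-106714540, minus strand (Bcl2), at chr17:27028578-27028877, minus strand (Bak1), at chr2:152828440-152828739, minus strand (Bcl2l1) and at chr2:128125788-128126087, plus strand (Bcl2l11).
Bcl2: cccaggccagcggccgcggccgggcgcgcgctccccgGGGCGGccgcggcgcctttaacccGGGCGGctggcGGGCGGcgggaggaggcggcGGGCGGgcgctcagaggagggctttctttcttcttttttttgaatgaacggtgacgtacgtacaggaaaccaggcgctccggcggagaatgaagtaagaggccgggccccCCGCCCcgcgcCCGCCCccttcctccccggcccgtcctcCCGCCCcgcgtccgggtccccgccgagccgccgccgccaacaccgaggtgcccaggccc
Bak1: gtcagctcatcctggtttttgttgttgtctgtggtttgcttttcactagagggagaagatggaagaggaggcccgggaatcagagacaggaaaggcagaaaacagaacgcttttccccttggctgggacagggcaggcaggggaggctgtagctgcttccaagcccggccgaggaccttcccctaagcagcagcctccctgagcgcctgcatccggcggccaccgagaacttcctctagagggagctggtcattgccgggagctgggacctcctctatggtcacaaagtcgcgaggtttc
Bcl2l1: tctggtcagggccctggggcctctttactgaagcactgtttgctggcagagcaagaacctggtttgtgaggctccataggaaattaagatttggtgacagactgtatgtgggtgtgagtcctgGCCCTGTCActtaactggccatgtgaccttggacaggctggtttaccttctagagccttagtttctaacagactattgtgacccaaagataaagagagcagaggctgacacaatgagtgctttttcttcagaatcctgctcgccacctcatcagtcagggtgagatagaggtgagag
Bcl2l11: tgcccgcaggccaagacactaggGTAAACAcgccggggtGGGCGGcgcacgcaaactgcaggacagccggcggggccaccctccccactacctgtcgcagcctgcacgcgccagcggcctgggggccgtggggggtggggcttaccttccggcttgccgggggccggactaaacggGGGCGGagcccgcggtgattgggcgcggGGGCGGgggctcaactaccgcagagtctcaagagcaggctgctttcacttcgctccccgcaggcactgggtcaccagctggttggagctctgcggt

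The Bcl2 window was rich in G and C (76%) and held 7 GC boxes, whereas the Bak1 window (58.3% G and C) held no match to any of the 4 motifs. The NRF2 core was found in 1 of the 14 windows, the Bcl2l1 window shown, where GCCCTGTCA (the reverse complement form) begins at position -127 from the start, and Bcl2l1 has 2 more windows without it. Of all 32851 promoter windows, 12.4% held the NRF2 core. The FOXO motif was found in 2 of the 14 windows, against 3.65% of all windows. They were the Bcl2l11 window shown and 1 Bbc3 window, which is not shown. The STAT motif was found in 0 of the 14 (8.3% of all windows) and the GC box in 9 of the 14 (35.7%). Of the Bbc3 windows, 2 overlap and share GC boxes. These matches describe letters in these windows and not binding.

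Values are the deposited log2 values of the arrays, means are given ± SD over 3 arrays per group, and differences are Keap1_KO minus WT. Over all genes tested, Keap1_KO B correlated most closely with WT A (r = 0.988) and not with another Keap1_KO array. WT A in turn correlated most closely with Keap1_KO B and not with another WT array. Keap1_KO B was not the least alike array, since the lowest r was 0.9265, for Keap1_KO D and for WT F, against 0.9585 for Keap1_KO B. For the targeted gene Keap1, which was dim and below the filter, Keap1_KO B did lie with its group, at 4.87, 4.89 and 4.70 for Keap1_KO B, C and D, against 5.30, 5.41 and 5.77 for WT A, D and F.

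The test was limma across the 16825 genes, with Benjamini-Hochberg adjustment. At adjusted p under 0.05 it called 0 of the 16825 genes (0%), and 0 of the 9 members. At unadjusted p under 0.05, 1733 genes passed (10.3%), 1410 of them higher in Keap1_KO (8.38%) and 323 lower (1.92%), and 2 of the 9 members passed, Bak1 in the higher direction and Bcl2 in the lower. All Keap1_KO arrays lay above all WT arrays in 9.11% of genes tested and below them in 4.96%. Among the members, Bak1 and Bid had all Keap1_KO arrays above, and Bcl2 had all below.

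Of the anti-apoptotic members, Bcl2 was lower in the Keap1_KO cells, while Mcl1 and Bcl2l1 differed little. Bcl2, the founding survival gene of the family, read 12.48, 11.60 and 11.91 on Keap1_KO B, C and D, against 13.08, 12.65 and 12.61 on WT A, D and F. The groups did not overlap, but Keap1_KO B lay only 0.13 below the nearest WT array, closer to it than to the other Keap1_KO arrays. The mean was 12.00 ± 0.44 in Keap1_KO and 12.78 ± 0.26 in WT, a difference of -0.79 (SE 0.27, 95% interval -1.44 to -0.13), or 0.58-fold. The limma p was 0.0263 before and 0.476 after adjustment, and the exact permutation test (two-sided) gave p = 0.1, below which groups of 3 arrays cannot go. Of all genes tested, Bcl2 stood at percentile 2.9 of the differences. Leaving out 1 array at a time gave differences from -1.03 (without Keap1_KO B) to -0.59 (without Keap1_KO C).

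**Figure D1:**
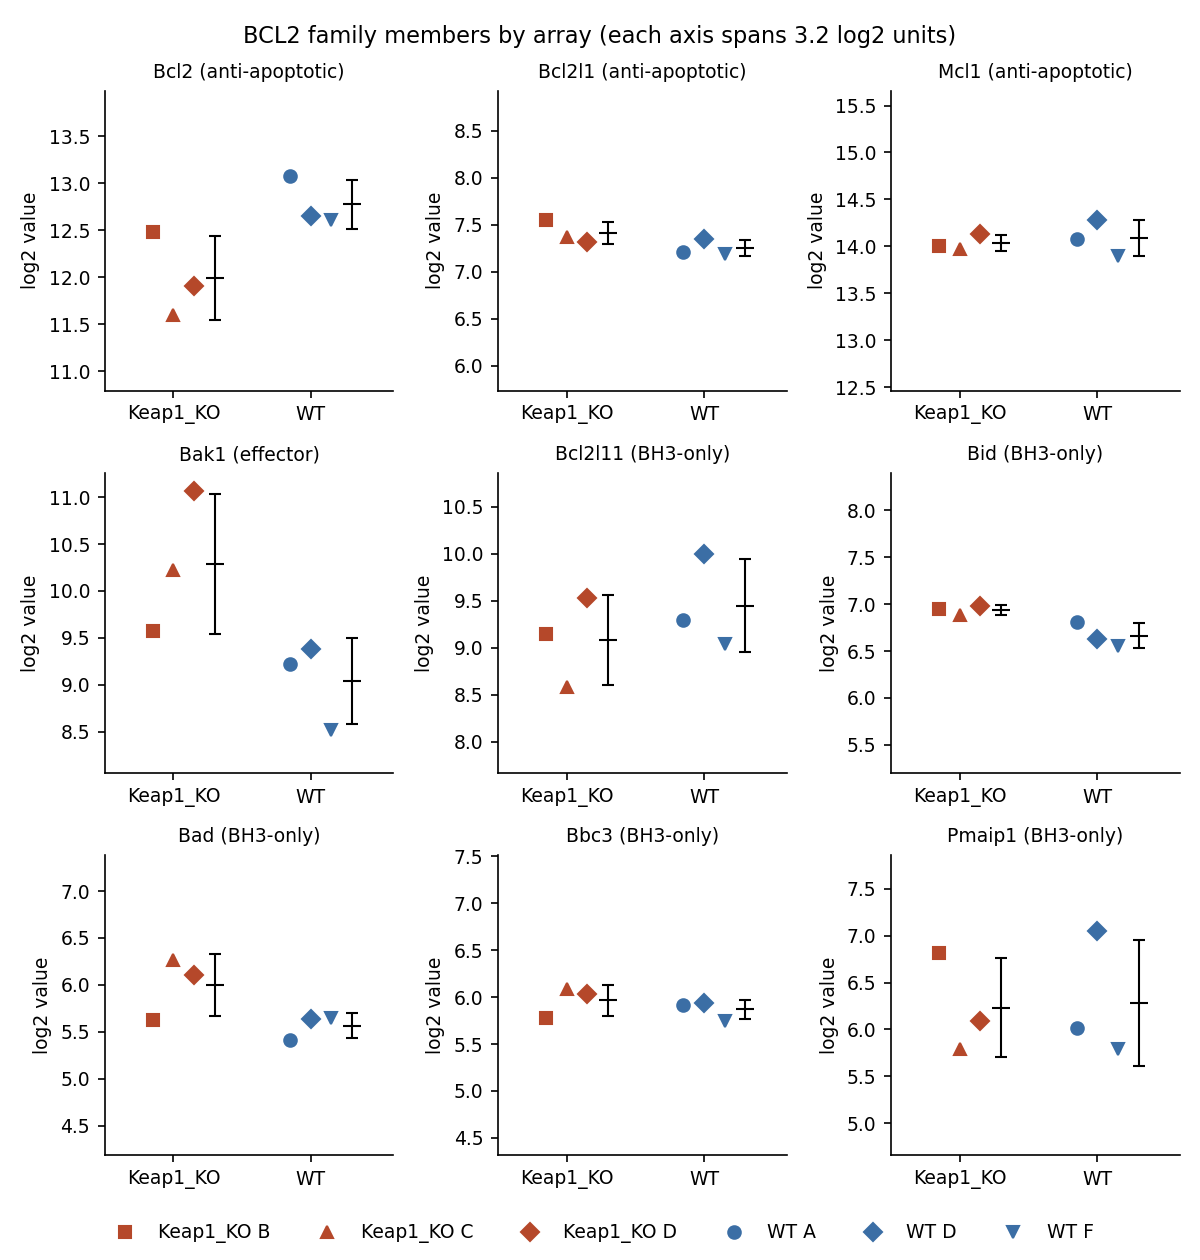
Deposited log2 values of the 9 measured members (y axis; each panel spans the same number of log2 units) on the 3 Keap1_KO arrays and the 3 WT arrays, with a symbol for each replicate letter and black bars for mean ± SD. The groups do not overlap in the panels of Bcl2, Bak1 and Bid, and Keap1_KO B is the Keap1_KO array nearest to WT for Bcl2 and Bak1.

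Mcl1, an anti-apoptotic gene with a short-lived product on which Treg cells depend, read 14.00, 13.97 and 14.13 on Keap1_KO B, C and D, against 14.08, 14.28 and 13.90 on WT A, D and F. All Keap1_KO arrays lay inside the WT range. The difference of -0.06 (SE 0.17, 95% interval -0.47 to 0.35) allows between 0.724-fold and 1.274-fold, and its sign turned when each array was centred on its median (0.054) and without WT D (0.037). Bcl2l1, the gene of BCL-XL, read 7.55, 7.37 and 7.32 on Keap1_KO B, C and D, against 7.21, 7.35 and 7.19 on WT A, D and F. The groups overlapped by a single pair, Keap1_KO D below WT D, and the difference was 0.16 (SE 0.16, limma adjusted p = 0.641). Bcl2l1 and Bcl2l11 give opposing or differently potent proteins by splicing, which 1 value per gene does not separate.

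Of the effectors, Bak1 had the largest difference of the 9 members. Bak1, whose product forms pores in the mitochondrial outer membrane, read 9.57, 10.22 and 11.06 on Keap1_KO B, C and D, against 9.22, 9.38 and 8.52 on WT A, D and F. The groups did not overlap, with a gap of 0.19 between Keap1_KO B and WT D. The mean was 10.28 ± 0.74 in Keap1_KO and 9.04 ± 0.46 in WT, a difference of 1.24 (SE 0.42, 95% interval 0.22 to 2.26), or 2.36-fold, at percentile 95.9 of all genes tested. The limma p was 0.0243 before and 0.476 after adjustment, and the exact permutation p was 0.1. Without Keap1_KO D the difference was 0.85 and without Keap1_KO B it was 1.59.

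Among the BH3-only members, Bid and Bad had higher means in Keap1_KO, Bcl2l11 a lower mean, and Bbc3 and Pmaip1 nearly equal means. Bid, which links death receptors to mitochondria once cut by caspase-8, read 6.95, 6.88 and 6.98 on Keap1_KO B, C and D, against 6.81, 6.63 and 6.55 on WT A, D and F. All Keap1_KO arrays lay above all WT arrays, by 0.07 at the closest, and the difference was small at 0.27 (SE 0.15, 1.21-fold, limma p = 0.123, adjusted p = 0.498, exact permutation p = 0.1). Bad, which is held inactive by survival kinases, read 5.63, 6.26 and 6.11 on Keap1_KO B, C and D, against 5.41, 5.64 and 5.65 on WT A, D and F. Keap1_KO B lay just below WT D and WT F, whereas Keap1_KO C and D lay above every WT array. The Bad difference was 0.43 (SE 0.22, limma adjusted p = 0.484).

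Bcl2l11, the gene of BIM, read 9.15, 8.58 and 9.53 on Keap1_KO B, C and D, against 9.30, 10.00 and 9.04 on WT A, D and F. The groups overlapped across most of their range, and WT D was the highest array of all. The difference of -0.35 (SE 0.34, 95% interval -1.18 to 0.47, limma adjusted p = 0.642) was -0.079 without WT D and -0.10 without Keap1_KO C. Bbc3 and Pmaip1 encode PUMA and NOXA, BH3-only proteins induced by p53. Bbc3 averaged 5.96 ± 0.17 in Keap1_KO and 5.87 ± 0.11 in WT, a difference of 0.09 (95% interval -0.31 to 0.50). Pmaip1 was the most variable member within WT, with 6.82, 5.79 and 6.09 on Keap1_KO B, C and D, against 6.02, 7.05 and 5.79 on WT A, D and F. High and low Pmaip1 arrays occurred in both groups, and the sign of its difference (-0.06, SE 0.41) turned in 5 of 11 alternatives, repeated quantile normalization (0.028) and centring (0.056) among them.

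**Figure D2:**
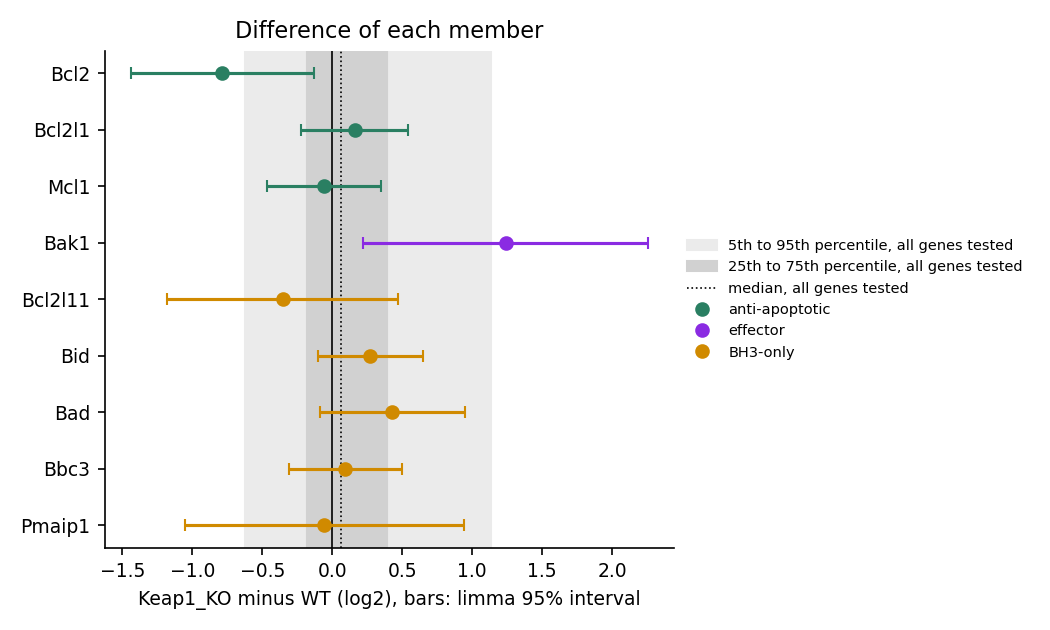
Keap1_KO minus WT difference of each measured member on the log2 scale (x axis, points) with limma's 95% interval (bars, not adjusted for the number of genes), colored by role, over the spread of all genes tested (grey bands) and their median (dotted line). The intervals of Bcl2 and Bak1 leave out 0 and those of the other 7 members include it.

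Set side by side by role, the 3 anti-apoptotic members had 1 higher and 2 lower means and a median difference of -0.06. The 6 pro-apoptotic members had 4 higher and 2 lower means and a median of 0.18. Over all genes tested, 56.5% had a higher mean in Keap1_KO and the median was 0.06, so the pro-apoptotic count stands near that share. Centring the arrays turned the anti-apoptotic median to 0.054. The mean deviation of the anti-apoptotic members from their own means, minus that of the pro-apoptotic members, came to 0.05, -0.30 and -0.49 for Keap1_KO B, C and D, against 0.37, 0.01 and 0.37 on WT A, D and F. Keap1_KO C and D lay below every WT array, and Keap1_KO B lay inside the WT range, above WT D. Bcl2 and Bak1, the members with the largest difference in either direction, both enter this score. The Bcl2 deviation minus the Bak1 deviation was -1.34 for Keap1_KO C and -1.88 for Keap1_KO D. For Keap1_KO B it was 0.18, and WT arrays lay between 0.54 and 1.36. Whether Keap1_KO C and D stand apart without these 2 genes was not tested. The anti-apoptotic Bcl2a1 genes described below had higher means in Keap1_KO and do not enter the score. Across the 6 arrays Bcl2 and Bad ran opposite to each other (Pearson r = -0.99), and Bcl2 and Bak1 less closely so (r = -0.74). These were the most negative values of all pairs of measured members. Other anti- and pro-apoptotic pairs ran together, such as Mcl1 with Bcl2l11 (0.89) and Pmaip1 (0.66), and Bcl2l1 with Pmaip1 (0.62). The arrays include both genotypes, and the values are descriptions.

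Each member's difference was also computed with Keap1_KO B left out or weighted down. Without Keap1_KO B, limma called 569 of the genes at adjusted p under 0.05 (3.38%), 542 of them higher in Keap1_KO (3.22%), with none of the 9 members among them, and the lowest adjusted p of a member was 0.0672 for Bcl2 and 0.0716 for Bak1. The array weights were lowest for Keap1_KO B (0.352), but WT F (0.51) and WT D (0.758) also had low weights. WT A had the highest (3.377), so the weighted WT level rested largely on that array, which was the highest for Bcl2. With these weights 1880 genes passed (11.2%), 1612 of them higher (9.58%) and 268 lower (1.59%). The calls included Bcl2 (difference -1.13, limma adjusted p = 0.0408) and Bak1 (1.34, adjusted p = 0.0465), and Bad missed narrowly (0.65, adjusted p = 0.0505).

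Markers of other cells also differed between the arrays. In bulk cells, fewer cells of a type and less RNA per cell cannot be told apart. Of 17 neutrophil and granulocyte markers 16 were measured and 15 passed the filter, 14 of them with a higher mean in Keap1_KO. The 16 measured averaged 7.29, 8.86 and 10.69 (log2 level) for Keap1_KO B, C and D, against 7.17, 8.14 and 7.46 for WT A, D and F. Bak1 followed the same order of arrays within Keap1_KO, but that order was not particular to this list. The plasma cell, macrophage and monocyte, CD8 T cell and Treg marker lists described below shared it. The CD4 T cell, B cell, NK cell and erythroid lists did not. Within WT, Bak1 was lowest for WT F (8.52), whereas the neutrophil and granulocyte list was lowest for WT A (7.17). The plasma cell, macrophage and monocyte, CD8 T cell and Treg lists were, like Bak1, lowest for WT F and highest for WT D. So were the CD4 T cell, B cell and NK cell lists. The Treg list followed the order of Bak1 over all 6 arrays. Camp, a neutrophil granule gene, read 8.26, 12.07 and 15.23 on Keap1_KO B, C and D, against 8.62, 9.96 and 9.50 on WT A, D and F. The part of neutrophils and granulocytes, or of any other listed cell type, in the Bak1 and Bcl2 values was not tested.

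Among all listed markers the largest difference was that of the beta-globin genes, which mark red blood cells and their precursors. The cluster shared by Hbb-bs and Hbb-bt read 13.03, 14.25 and 14.93 on Keap1_KO B, C and D, against 9.71, 9.34 and 9.85 on WT A, D and F. All Keap1_KO arrays, B included, lay far above all WT arrays, and the difference was 4.44 (SE 0.48, 21.7-fold, limma adjusted p = 0.68 over all clusters). Hba-a1, also on a shared cluster, differed by 2.60 (SE 0.72) without overlap. The 3 erythroid genes with a cluster of their own averaged between 5.98 and 6.18 in Keap1_KO and between 5.93 and 6.36 in WT. The part of erythroid RNA in the members' values was not tested.

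Pan-CD4 T cell markers (7 measured of 9 listed, all 7 with a higher mean in Keap1_KO) averaged 14.34, 15.37 and 15.36 on Keap1_KO B, C and D, against 14.10, 14.59 and 13.98 on WT A, D and F. They were highest on Keap1_KO C and D, where Bcl2 was lowest. Within WT, the marker mean (13.98) and Bcl2 (12.61) were both lowest on WT F. The part of these markers' cells in the Bcl2 value was not tested. The measured Treg markers (8 of 9) all passed the filter. So did all measured B cell, NK cell, CD8 T cell and plasma cell markers, so passing it does not tell cell types apart. The Treg markers averaged 11.05, 11.78 and 11.79 on Keap1_KO B, C and D, against 10.80, 11.01 and 10.73 on WT A, D and F, without overlap between the groups. Within the Treg list, Tnfrsf18 (2.35) and Tnfrsf4 (2.01) had the largest differences, with overlapping arrays, while Il2ra (-0.05) and Ikzf2 (-0.11) differed little. Foxp3, on a cluster shared with other transcripts, read 11.11, 12.41 and 12.08 on Keap1_KO B, C and D, against 10.76, 10.76 and 11.15 on WT A, D and F. B cell markers (9 of 10 measured) averaged between 6.76 and 8.12 in Keap1_KO and between 6.09 and 7.93 in WT, and NK cell markers (8 of 9) averaged between 7.70 and 9.51 in Keap1_KO and between 6.82 and 9.25 in WT. CD8 T cell markers (2 of 2) averaged between 6.67 and 8.38 in Keap1_KO and between 6.34 and 7.79 in WT, and plasma cell markers (6 of 6) between 7.92 and 9.52 in Keap1_KO and between 7.70 and 8.74 in WT. Macrophage and monocyte markers (9 of 10) averaged 5.98 to 6.66 in Keap1_KO and 5.59 to 6.35 in WT, with Cd14, Fcgr1, C1qa and C1qb below the filter. Lyz2 of that list, which neutrophils also express, was bright on some arrays, at 9.22, 12.75 and 15.13 on Keap1_KO B, C and D, against 8.58, 11.73 and 8.21 on WT A, D and F.

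**Figure D3:**
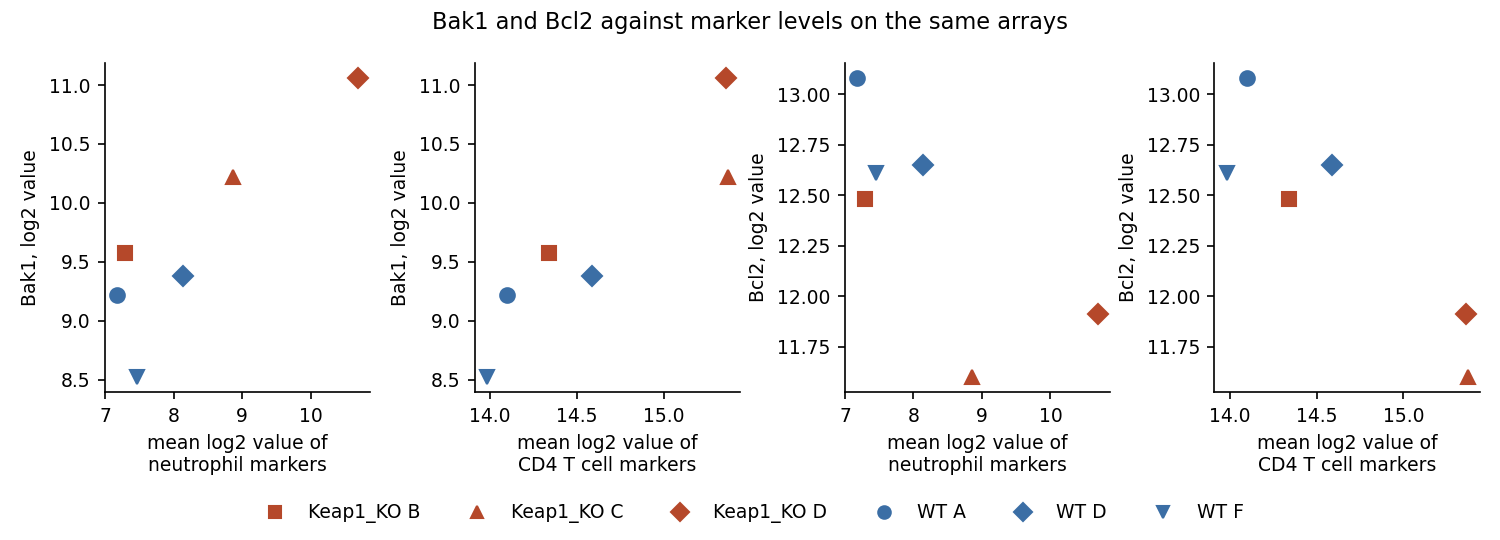
Bak1 (left pair of panels) and Bcl2 (right pair) on the y axis against the mean log2 level of neutrophil or CD4 T cell markers on the same array (x axis), 1 point per array, Keap1_KO in red and WT in blue. Keap1_KO C and D have the highest levels of both marker lists and the lowest Bcl2, and Keap1_KO B lies among the WT arrays on the x axis of each panel.

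Beyond the 9 members, the rest of the BCL2 family was measured for 13 tested genes of 18 listed, 10 with a higher and 3 with a lower mean (median 0.14), and 0 passed the adjusted threshold. As given above, 56.5% of all genes tested had a higher mean and their median was 0.06, which holds beside each list that follows. The largest differences belonged to the Bcl2a1 genes, mouse copies of the anti-apoptotic gene for A1 that are near-identical, so that probes may not separate them. Bcl2a1d read 9.80, 11.81 and 11.33 on Keap1_KO B, C and D, against 9.03, 10.02 and 8.89 on WT A, D and F. Bcl2a1a read 15.12, 15.78 and 15.77 on Keap1_KO B, C and D, against 14.76, 15.24 and 14.06 on WT A, D and F. Keap1_KO B lay below WT D in both genes, as it did for Bcl2a1c, so that the groups overlapped. The differences were 1.67 for Bcl2a1d (SE 0.57), 1.54 for Bcl2a1c (SE 0.68) and 0.87 for Bcl2a1a (SE 0.35), each with a limma adjusted p of 0.476. A1 genes are also expressed by neutrophils, whose markers were high on Keap1_KO C and D, and the part of those cells was not tested. Bcl2a1b, on a cluster shared with other transcripts, differed by 1.11 (SE 0.38) with overlapping arrays. The differences of Bcl2a1a and Bcl2a1d run opposite in sign to that of Bcl2, within the same anti-apoptotic class.

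At and downstream of the mitochondria, 18 of 20 listed genes were tested, with 14 higher and 4 lower means (median 0.19). Of these, 0 passed the adjusted threshold. All Keap1_KO arrays lay above all WT arrays in 6 of the 18 and below in 0, against 9.11% and 4.96% of all genes tested. The rest of the family had 1 of 13 above and 2 below. The regulators described further on had 3 of 21 above and 1 below. The death receptor genes had 1 of 11 above and 1 below, and the p53 targets 1 of 13 above and 1 below. The 6 genes of the mitochondrial list were Casp6, Diablo, Htra2, Aifm1, Birc5 and Dffa (all but Htra2 named after their values were seen). That list, and these 6, hold inhibitors as well as promoters of death, so the count gives no direction for death. Htra2, a mitochondrial protease that antagonises inhibitors of apoptosis once released, read 8.30, 9.59 and 9.54 on Keap1_KO B, C and D, against 7.87, 8.16 and 7.58 on WT A, D and F, a difference of 1.27 without overlap (SE 0.38, limma adjusted p = 0.476). The outer-membrane channel gene Vdac3 differed by 1.54 (SE 0.56) and the mitochondrial nuclease gene Endog by 1.24 (SE 0.68), both with overlapping arrays. Apaf1, the scaffold of the apoptosome, and Cycs, the gene of cytochrome c, differed by -0.36 and -0.09, with overlapping arrays (both named after their values were seen).

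In the death receptor pathway, 11 of 12 genes were tested, 7 with higher and 4 with lower means (median 0.11). The tumour necrosis factor receptor gene Tnfrsf1b read 11.65, 12.21 and 12.34 on Keap1_KO B, C and D, against 10.65, 11.31 and 10.87 on WT A, D and F, a difference of 1.12 without overlap (SE 0.27, limma adjusted p = 0.476). Fas, which triggers caspase-8, differed by 1.34 (SE 0.64) and its ligand gene Fasl by -0.56 (SE 0.29), both with overlapping arrays. Casp8 itself averaged 12.32 in Keap1_KO and 12.33 in WT, and Cflar, the inhibitor of caspase-8, differed by -0.33 with all Keap1_KO arrays below all WT arrays (both named after their values were seen).

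Of the 27 regulators listed, 21 were tested, 13 with higher and 8 with lower means (median 0.15). The stress-induced transcription factor gene Ddit3, whose product raises Bim in mouse cells, read 9.20, 10.57 and 10.58 on Keap1_KO B, C and D, against 8.74, 9.02 and 8.89 on WT A, D and F, a difference of 1.23 without overlap (SE 0.39, limma adjusted p = 0.476). The interleukin-2 receptor chain gene Il2rb (1.10, SE 0.55) and the BCL2-binding cochaperone gene Bag1 (1.03, SE 0.43) had overlapping arrays. The FOXO genes, known activators of Bcl2l11, had lower means in Keap1_KO but overlapping arrays. Their differences were -0.45 for Foxo1 (SE 0.27, limma adjusted p = 0.513) and -0.56 for Foxo3 (SE 0.24, adjusted p = 0.476). Usp9x, a deubiquitinase that stabilises MCL1, differed by -0.58 without overlap (SE 0.24, limma adjusted p = 0.476). Foxo1, Foxo3 and Usp9x were all named after their values were seen. Of 13 p53 targets tested outside the family, 10 had higher and 3 lower means (median 0.12). Cdkn1a read 6.22, 7.32 and 7.27 on Keap1_KO B, C and D, against 5.75, 5.58 and 5.54 on WT A, D and F (1.31, SE 0.32, limma adjusted p = 0.476), whereas Trp53inp1 differed by -0.58 (SE 0.20) with all Keap1_KO arrays below all WT arrays, and Ddit4 by 0.49 (SE 0.69) with overlapping arrays. In none of these lists did a gene pass the adjusted threshold.

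**Figure D4:**
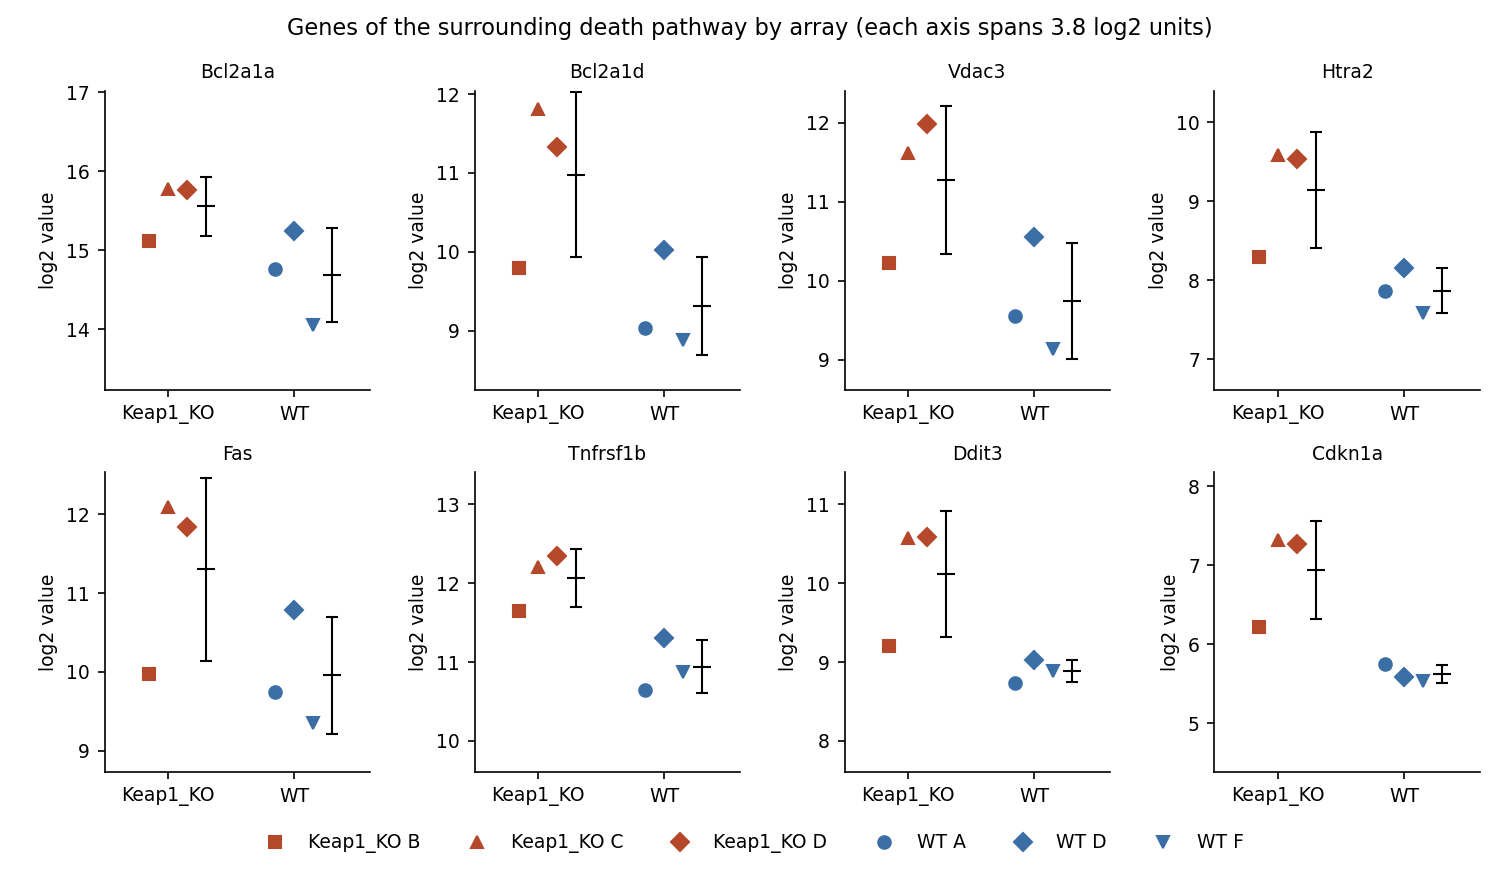
Deposited log2 values (y axis; each panel spans the same number of log2 units) of 8 genes from the surrounding pathway lists on the 3 Keap1_KO and 3 WT arrays, with a symbol for each replicate letter and black bars for mean ± SD. The 8 were picked from genes with higher means in Keap1_KO. Fasl (-0.56) and Trp53inp1 (-0.58), among the largest differences of the same lists, had lower means and are not shown. In all 8 genes Keap1_KO C and D lie above every WT array, and Keap1_KO B lies below WT D in Bcl2a1a, Bcl2a1d, Vdac3 and Fas.

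The genes most alike in pattern were sought among 10993 protein-coding genes by Pearson r over the 6 arrays, as a description. Nearest to Bcl2 were Sfrp2 (r = 0.995), Top2b (0.992) and Atp8a1 (0.992), nearest to Mcl1 were Dohh (0.996), Qpct (0.996) and Jmy (0.995), and nearest to Bcl2l11 were Tmem30a (0.995), Crlf3 (0.993) and Serinc1 (0.983). The genes nearest to Bcl2 in pattern differed by -0.44 (Sfrp2), -0.44 (Top2b) and -0.66 (Atp8a1). Their lower means follow from choosing them by likeness to Bcl2 on the same arrays.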

How the data were processed

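The deposited data are log2 values of expression for each transcript cluster on each array. The submitters' processing notes name RMA, Transcriptome Analysis Console and Affymetrix Expression Console, with no versions, and for the build nothing is given in the sources used here. Values run from 1.88 to 19.93, above the 16 that a 16-bit scanner allows before any rescaling, and no source used here states how these values arose. RNA input was 40 ng, per the labels' protocols. The array type named in the series' design text is not the one whose annotation the deposited cluster identifiers match, and genes were named through that annotation. Of 65528 clusters, 30354 carried 1 gene symbol. Symbols were updated by Entrez identifier. A cluster was tested when at or above its array's median on at least 3 of 6 arrays, and the brightest cluster stood for a gene. Groups came from sample titles. The comparison used limma 3.58.1 in R 4.3.3 (lmFit, eBayes) over 16825 genes, two-sided, with Benjamini-Hochberg adjustment, and the exact permutation test over 20 groupings for single values. The limma step was also run on simulated data with independent noise of equal size on every array. The arrays here had unequal weights, so that run does not bear on the members' results. Whether each array stands for its own mouse is not in the labels, so p-values measure the spread between arrays, which may be partly technical, and the number of arrays limits the precision. Members and lists were chosen with earlier results of these data known. Named were all members and the 3 genes of each related list with the largest absolute difference. The 11 alternatives were no filter, repeated quantile normalization, centred arrays, array weights, an intensity trend with robust prior, and leaving out each array.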

Additional observations from a re-analysis of the deposited data

How the results depend on the processing

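Over the 11 alternatives, Bcl2 stayed lower in Keap1_KO (-1.13 to -0.59) and Bak1 (0.85 to 1.59), Bid (0.18 to 0.39), Bad (0.30 to 0.65), Bcl2l1 (0.094 to 0.27) and Bbc3 (0.031 to 0.21) stayed higher, while Bcl2l11 stayed lower (-0.58 to -0.079). The limma adjusted p ranged from 0.0408 to 0.90 for Bcl2 and from 0.0465 to 0.90 for Bak1. Only with array weights did these members pass, Bcl2 with a difference of -1.13 and Bak1 with 1.34. The number of genes past the adjusted threshold was 0 as analysed and with no filter, repeated quantile normalization or centring, 1880 with array weights and 1 with an intensity trend and robust prior, and from 0 to 569 when 1 array was left out, 569 being the count without Keap1_KO B. The cause of these shifts was not tested. Mcl1 turned to 0.054 with centred arrays, and leaving out 1 array gave -0.15 to 0.037. Pmaip1 turned to 0.028 under repeated quantile normalization and to 0.056 under centring, and leaving out 1 array gave -0.35 to 0.33, with 0.16 without Keap1_KO C, 0.017 without Keap1_KO D and 0.33 without WT D. Mcl1 was 0.037 without WT D. The median of all genes was 0.061 as analysed, 0.14 under repeated quantile normalization and 0.17 under centring, where Bcl2 differed by -0.79 and -0.67 and Bak1 by 1.28 and 1.35. The members' medians ranged from -0.21 to 0.054 (anti-apoptotic) and from 0.13 to 0.30 (pro-apoptotic). Each member had a single cluster, so the alternative of another cluster gave no value. No paired analysis was possible because the groups share only the replicate letter D.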
